A study of Homo sapiens with 6 samples.

Results

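The regions described here are β-catenin peaks that lay past the end of the gene they were assigned to. They were chosen from the 3 deposited peak lists as rows whose position was given as downstream and whose centre was more than 1000 bp from the transcription start site (TSS) of the assigned gene. This gave 38 of 260 peaks in RPMI, 252 of 1053 in CHIR and 505 of 1813 in CHIR+SB, 795 of 3126 in all. Chromatin immunoprecipitation followed by sequencing (ChIP-seq) had been carried out on SA121 cells, a line of human embryonic stem cells, kept for 6 h in RPMI medium with no inhibitor (RPMI), with the inhibitor CHIR99021 (CHIR), or with CHIR99021 and SB431542 together (CHIR+SB). Each condition had 1 β-catenin library and 1 control goat IgG library, each made from the pooled DNA of 3 parallel ChIPs, so replicate error could not be estimated and no p-values are reported. All 3 conditions used the same line, so they show 1 genetic background. Intervals are exact 95% intervals. Those of signals, ratios and shares come from read or peak counts and cover counting error only. Those of medians come from the ranks of the peaks and cover the spread between peaks, taken as independent.

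β-catenin is the transcriptional effector of canonical Wnt signalling. It has no DNA-binding domain of its own and is brought to DNA mainly by TCF/LEF factors, often at enhancers that lie far from a gene on either side of it. Without a Wnt signal the kinase GSK3 marks it for degradation, and CHIR99021 inhibits GSK3. SB431542 blocks the ALK-family type I receptors of activin, Nodal and TGFβ, whose signals act through SMAD2 and SMAD3. A peak past a gene end is assigned by position, and the assignment does not show which gene, if any, it regulates.

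The β-catenin libraries differed in depth. The authors' scaling factors put the CHIR library at 1.67 times and the CHIR+SB library at 1.14 times the depth of RPMI, and the IgG libraries at 0.976 and 1.75 times. The weakest peak of each list, in the normalized signal (reads in the peak multiplied by the factor of its library), stood at 9.61 in RPMI, 7.68 under CHIR and 6.75 under CHIR+SB. The downstream peaks held 720, 8716 and 10282 β-catenin reads and 155, 957 and 3287 IgG reads.

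Downstream peaks made up 14.6% of the RPMI list (interval 10.6 to 19.5), 23.9% of the CHIR list (21.4 to 26.6) and 27.9% of the CHIR+SB list (25.8 to 29.98). Upstream and intragenic peaks were also larger shares in the inhibitor lists, whereas promoter peaks, with centres within 1 kb of the TSS, made up 55% in RPMI, 26.6% under CHIR and 14.5% under CHIR+SB. List length moved with these shares. Among the 260 strongest peaks of each list, 14.6%, 19.6% and 19.2% were downstream, so CHIR and CHIR+SB were close. They were 21.7% and 26.2% at a common minimum signal of 9.61, and 22.1% and 26.2% among the peaks above the median signal of each list. One further downstream peak, in CHIR+SB, fell to the distance rule: it was assigned to the microRNA gene MIR4470, lay 202.5 bp from the TSS and had 14 reads. The peak just inside the rule was at MIR548AD, 1109.5 bp from the TSS, also with 14 reads.

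**Figure D1:**
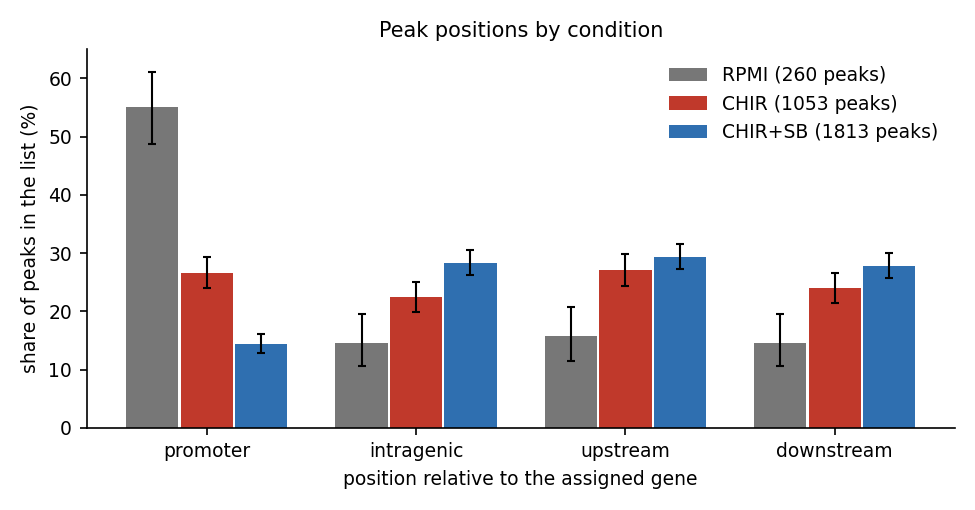
Share of the peaks of each list (y axis, percent) by position relative to the assigned gene (x axis), with bars for RPMI, CHIR and CHIR+SB and exact 95% intervals as error bars. The downstream share is 14.6% in RPMI, 23.9% under CHIR and 27.9% under CHIR+SB, while the promoter share goes from 55% to 26.6% and 14.5%.

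By normalized signal, downstream peaks had about the height of upstream and intragenic peaks and were lower than promoter peaks. Their median normalized signal was 10.9 in RPMI, 11.1 under CHIR and 9.56 under CHIR+SB, against 15.4, 14.2 and 12.9 for promoter peaks and 10.9, 11.5 and 9.56 for upstream peaks. In reads, the lowest, median and highest downstream peaks had 15, 17 and 35 in RPMI, 20, 29 and 98 in CHIR and 12, 17 and 88 in CHIR+SB. Most of them therefore rested on few reads. Other measures gave another order against promoter peaks, except signal per kb in CHIR. The median signal over IgG was 4.47, 4.72 and 4.29 in the 3 lists, above the 4.09, 4.13 and 3.74 of promoter peaks. Signal per kb was 51.5, 37.3 and 40.2, against 46.0, 38.2 and 39.5 at promoters. Among the 100 strongest peaks of a list, 8 were downstream in RPMI, 19 under CHIR and 23 under CHIR+SB. Over the whole lists the shares were higher, at 14.6%, 23.9% and 27.9%. The 100 peaks are a larger part of the RPMI list than of the longer inhibitor lists, so these counts compare unlike cuts. The strongest downstream peak ranked 31, 15 and 6.

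The peaks ranged from the last bases of the gene to more than a megabase beyond it. The median distance from peak centre to gene end was 23.5 kb in RPMI (interval 7.58 to 86.9), 39.5 kb in CHIR (28.3 to 49.3) and 60.7 kb in CHIR+SB (49.9 to 75.5). Within 5 kb of the end lay 5 peaks in RPMI, 44 under CHIR and 62 under CHIR+SB, and beyond 500 kb lay 2, 9 and 35. The greater distance in CHIR+SB went with its weaker peaks. When only peaks of at least 9.61 normalized signal, the highest of the 3 list minimums, were kept, the medians were 23.5, 32.6 and 44.4 kb.

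**Figure D2:**
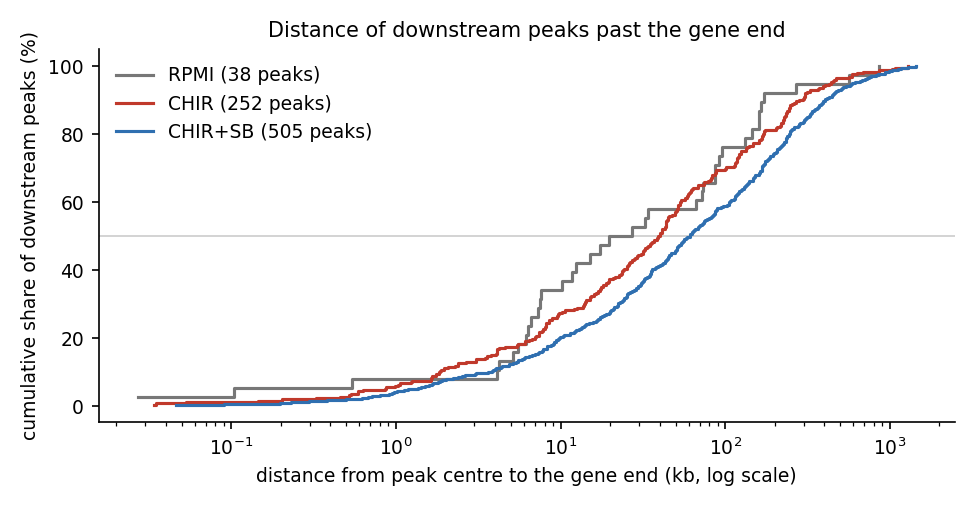
Cumulative share of downstream peaks (y axis, percent) against the distance from the peak centre to the gene end (x axis, kb, log scale) for the 38 RPMI, 252 CHIR and 505 CHIR+SB peaks; the grey line marks 50%. The curves cross it at 23.5, 39.5 and 60.7 kb.

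The nearest peaks were centred a short way past the gene end. NRTN, which encodes the neurotrophic ligand neurturin, had a peak centred 27 bp past its end in RPMI, with 32 reads, and 34 bp past it in CHIR, with 43 reads (chromosome 19, 5828153 to 5828585 in CHIR). ASPDH and the RNA helicase gene MOV10 had peaks 35 and 53.5 bp past the end in CHIR. In CHIR+SB the nearest were PNRC1, a nuclear receptor coactivator gene, at 46.5 bp, SOX14 at 87.5 bp and ASPDH at 90 bp. The next in RPMI were the kinase gene STK17A at 103.5 bp and ZNF48 at 538.5 bp. At the other extreme, the farthest peaks were those of KCNJ2 (853 kb), MIR4500HG (562 kb) and TERF2IP (271 kb) in RPMI, SLITRK1 (1279 kb), CSMD3 (1072 kb) and GATA3 (1023 kb) in CHIR, and ARAP2 (1437 kb), SLITRK1 (1279 kb) and FAM135B (1191 kb) in CHIR+SB.

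The strongest downstream peaks of the inhibitor lists were assigned to genes of varied function, from channels and transporters to transcription factors, a growth factor and non-coding RNAs. The highest in CHIR was 853 kb past KCNJ2, an inward-rectifier potassium channel gene, with 98 reads and 11 IgG reads (chromosome 17, 69028702 to 69029504). The next protein-coding gene in that direction was SOX9, a transcription factor of cartilage, testis and neural crest. FBRS followed with 96 reads, the long non-coding RNA LINC01124 with 93 and the zinc-finger gene ZNF436 with 87. FGF18 and SLC2A1-DT had 83 reads each, GBX2 had 81, FOXB1 and SLC27A4 had 80 each, and ADD3 had 77. In CHIR+SB the highest was LINC01124, with 88 reads and a normalized signal of 49.5, and others among the 10 highest were KCNJ2 (67 reads), FOXB1 (66), ADD3 (65), FBRS (62), a second FOXB1 peak (55), SLC2A1-DT and LINC00443 (54 each) and CECR3 (53). LINC01124, KCNJ2, FOXB1, ADD3, FBRS and SLC2A1-DT were thus among the 10 highest of both lists. The RPMI list was led by FBRS with 35 reads, NRTN with 32, WNT8A with 27 and, at 26 each, ZNF48, PRR16 and POU4F2.

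Some of these peaks lay close to other genes. The LINC01124 peak in CHIR was 0.203 kb past its gene end (chromosome 2, 171568341 to 171569149) and 3.11 kb from the TSS of SP5, a Wnt-induced transcription factor. The SLC27A4 peak was 6.30 kb from the TSS of URM1 in CHIR and 6.20 kb in CHIR+SB, nearer than the 24.5 and 24.6 kb to its own. Another gene named in the lists had a nearer TSS than the assigned gene at 4 of 38 downstream peaks in RPMI, 25 of 252 in CHIR and 37 of 505 in CHIR+SB. Within the body of another listed gene lay 0, 4 and 13 peaks. Those in CHIR+SB included all 4 peaks of PRKG1-AS1, which lay inside the kinase gene PRKG1, and in both inhibitor lists a peak of DLGAP1-AS1 inside DLGAP1 and a peak of HYMAI inside PLAGL1. Only genes named in the lists were compared, so these counts are lower limits.

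Long non-coding RNA genes were named more often for downstream than for upstream peaks. A long non-coding RNA was the assigned gene of 51 of 252 downstream peaks in CHIR (20.2%, 15.5 to 25.7) and of 18.8% in CHIR+SB (15.5 to 22.5). Upstream peaks had 8.42% (5.47 to 12.3) and 7.33% (5.26 to 9.89). These intervals take each peak as independent, but some peaks shared a gene, such as the 4 of PRKG1-AS1 in CHIR+SB. The lists also shared sites, with 163 of 252 CHIR downstream peaks overlapping a CHIR+SB peak, so they are not separate observations. In RPMI the share was 18.4% (7.74 to 34.3) on 38 downstream peaks. MicroRNA genes were named for 5.26%, 6.75% and 7.13% of downstream peaks in the 3 lists, and for 8.07% of upstream peaks in CHIR.

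Overlap between the lists was then counted as at least 1 shared base. Of the 38 RPMI downstream peaks, 20 overlapped a CHIR peak (52.6%, 35.8 to 69.0), against 69.6% of all RPMI peaks, and 17 overlapped a CHIR+SB peak (44.7%, 28.6 to 61.7), against 61.5%. The overall figures carry the many promoter peaks, of which 93.0% overlapped CHIR. The overlap of RPMI upstream and intragenic peaks with CHIR was 36.6% and 34.2%, within the downstream interval or just below it. Seen from the other side, 19 of 252 CHIR downstream peaks (7.54%) overlapped an RPMI peak, against 17% of all CHIR peaks, and 16 of 505 CHIR+SB downstream peaks (3.17%) did, against 8.77%. Promoter peaks again carried the totals, with 47.5% in CHIR and 45.0% in CHIR+SB. Upstream peaks had 4.91% and 3.01%, and intragenic peaks 5.51% and 1.75%, so the downstream shares were not below those of either class.

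Between the inhibitor lists, 163 of 252 CHIR downstream peaks overlapped a CHIR+SB peak (64.7%, 58.4 to 70.6), against 63.3% of all CHIR peaks. The reverse count was 163 of 505 CHIR+SB downstream peaks (32.3%, 28.2 to 36.5), against 36.6% of all. The downstream share was near the figure for all peaks in both directions. Every overlapping partner, in each of these comparisons, was itself downstream and assigned to the same gene. Gene and position class are both assigned from coordinates, so this follows largely from the overlap itself. Higher peaks overlapped more often. In the weakest, middle and strongest of 3 equal groups of the CHIR downstream peaks by signal, 36.9%, 70.2% and 86.9% overlapped CHIR+SB, and for CHIR+SB against CHIR the figures were 5.33%, 22.0% and 69.6%. With peaks of at least 9.61 normalized signal in both lists, the CHIR+SB share was 45.9%. Distance from the gene end showed a gradient in CHIR+SB, where 46.8% of peaks within 5 kb overlapped a CHIR peak, 37.5% at 5 to 50 kb, 26.7% at 50 to 500 kb and 7 of 35 peaks beyond. Median reads went down in step, from 19.5 to 18, 16 and 16, and their part in the gradient was not tested. No such order was seen in CHIR against CHIR+SB (68.2%, 62.0%, 64.6% and 77.8%). The splits by signal and by distance were made for downstream peaks only, so they are not shown to be particular to them.

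Joined across lists, the 795 peaks formed 610 separate sites. Of these, 341 (55.9%) were called in CHIR+SB alone, 146 (23.9%) in CHIR and CHIR+SB, 86 (14.1%) in CHIR alone and 17 in RPMI alone. Peaks of the other positions were not joined in this way, so these shares have no background and are not shown to be particular to downstream sites. Sites called in 1 list were weak in it, with a median of 15 reads (12 to 33) for CHIR+SB alone, 23 (20 to 62) for CHIR alone and 15 (15 to 18) for RPMI alone. NRTN, the Wnt ligand gene WNT10A and SIPA1L2 had a site in RPMI and CHIR, and CBLN2 in RPMI and CHIR+SB. The lists do not give the reads of a library at a site where no peak was called, so absence from a list does not show absence of signal.

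The 16 sites called in all 3 conditions were assigned to KCNJ2, FBRS, ADD3, MIR3924, WNT8A, ZNF48, FZD1, ACTR2, POU4F2, PRR16, C8orf88, MIR4500HG, MYOZ1, TMEM167A, TRIM27 and TERF2IP. At C8orf88 the RPMI and CHIR+SB peaks did not touch and were joined through the CHIR peak. At FZD1, which encodes a Frizzled receptor for Wnt ligands, 2 RPMI peaks of 16 and 15 reads lay within 1 CHIR peak of 50 reads, and the CHIR+SB peak had 38. WNT8A, a Wnt ligand gene expressed in the primitive streak, was the other site at a gene of the Wnt pathway.

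One of the 16 sites was assigned to a microRNA gene, MIR3924, 161 kb from the peak. Its mature product is shown to identify the gene, as given by RefSeq (GRCh38.p14), 5′ to 3′ with the seed, bases 2 to 8, in capitals.
hsa-miR-3924: aUAUGUAUaugugacugcuacu
The peak itself lay outside this gene, at chromosome 10, 58902807 to 58903425 in CHIR. It had 25 reads in RPMI, 67 under CHIR and 46 under CHIR+SB, over 8, 6 and 16 IgG reads. These are normalized signals of 16.0, 25.7 and 25.9.

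At KCNJ2 the peak had 20 reads in RPMI, 98 under CHIR and 67 under CHIR+SB, which are normalized signals of 12.8, 37.6 and 37.7. Both inhibitor conditions stood above RPMI and were level with each other. At ADD3, which encodes the membrane-skeleton protein γ-adducin, reads were 16, 77 and 65, with IgG reads of 4, 6 and 22. The normalized signals there were 10.3, 29.6 and 36.6. At FBRS reads were 35, 96 and 62 (normalized 22.4, 36.9 and 34.9). At WNT8A they were 27, 64 and 48 (normalized 17.3, 24.6 and 27.0), 4 kb past the gene end (chromosome 5, 137430945 to 137431579 in CHIR). POU4F2, a transcription factor of retinal neurons, had 26, 39 and 19 reads (normalized 16.7, 15.0 and 10.7) and no such order. TRIM27 had 21, 28 and 17 (normalized 13.5, 10.8 and 9.56).

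**Figure D3:**
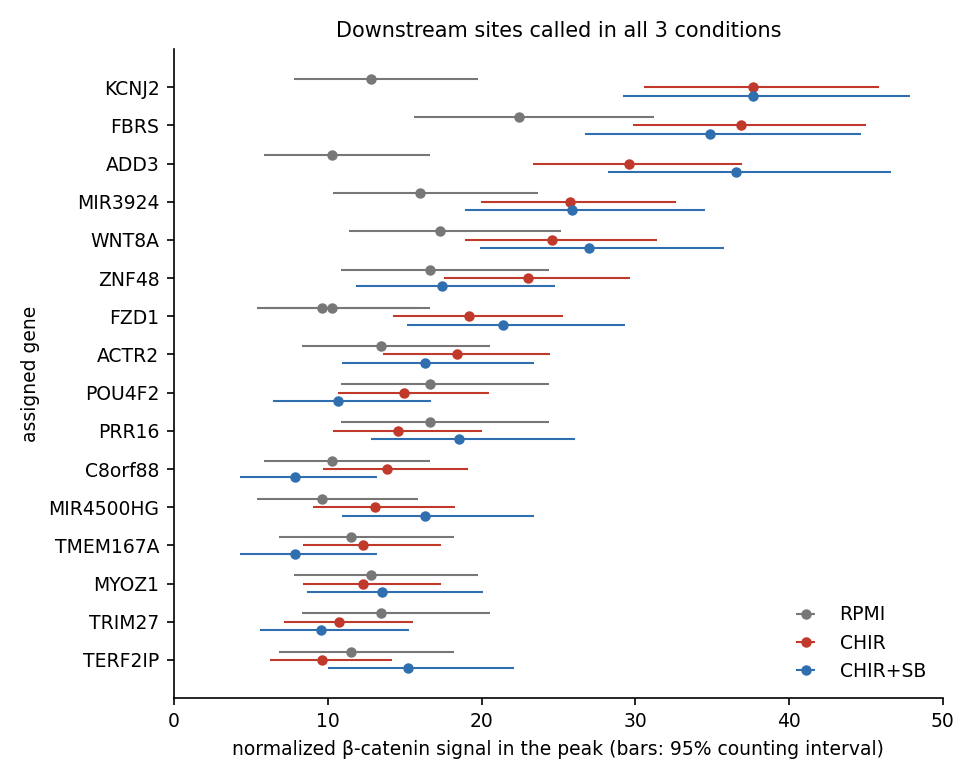
Normalized β-catenin signal (x axis) of the peaks at the 16 downstream sites called in all 3 conditions, named by assigned gene (y axis); points are single libraries and lines exact 95% counting intervals. At KCNJ2 and ADD3 the RPMI interval lies below both inhibitor intervals, and at the sites in the lower part of the plot the 3 intervals overlap; 2 RPMI points are drawn at FZD1.

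The ratio of normalized signals was taken at peaks that met one-to-one in a pair of lists. For CHIR over RPMI, 18 downstream pairs had a median ratio of 1.35 (range 0.799 to 2.94), against 1.23 over all 174 pairs. Of the 18, 4 were at least 1.5 times higher in CHIR, 22.2%, where 21.3% of all pairs were, and none was 1.5 times lower, where 1.72% were. The downstream share was thus near the background. The same 4 pairs had an interval above 1, against 16.1% of all pairs, and none had one below 1, against 0.575%. They were KCNJ2 (2.94, 1.80 to 5.02), ADD3 (2.88, 1.67 to 5.30), FBRS (1.64, 1.11 to 2.49) and MIR3924 (1.61, 1.00 to 2.65). Peak width moved with these ratios. The CHIR peak was 7.24 times as wide as the RPMI peak at ADD3 and 2.35 times at KCNJ2, where the ratios per kb were 0.398 and 1.25. Per kb of peak the median ratio of the 18 pairs was 0.911.

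For CHIR+SB over RPMI, a comparison that shares the RPMI library with the preceding one, 15 downstream pairs had a median ratio of 1.21 (0.641 to 3.57). Over all 152 pairs the median was 1.09. Of the 15, 6 were at least 1.5 times higher, 40%, against 17.8% of all pairs, and 1 was 1.5 times lower, against 6.58%. For the other positions, 44.4% of 9 intragenic, 14.3% of 14 upstream and 13.2% of 114 promoter pairs were at least 1.5 times higher. With 15 pairs, the 40% is not shown to be particular to downstream peaks. The interval lay above 1 at ADD3 (3.57), KCNJ2 (2.94) and FBRS (1.55), 3 of 15, where 8.55% of all pairs had such an interval, and below 1 at none, where 2.63% had. Width again moved with the ratio: at ADD3 it was 9.81 times that of the RPMI peak, the ratio per kb was 0.364 and IgG reads were 22 against 4. At KCNJ2 the width ratio was 2.26 and the ratio per kb 1.30, and at FBRS 1.26 and 1.24.

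For CHIR+SB over CHIR, 160 downstream pairs had a median ratio of 1.08 (0.445 to 2.17), against 1.00 over all 642 pairs, 1.06 at upstream, 1.04 at intragenic and 0.874 at promoter pairs. In CHIR+SB, 28 pairs were at least 1.5 times higher (17.5%, with 11.7% over all pairs) and 16 were 1.5 times lower (10.0%, with 8.88%). The interval of the ratio lay above 1 at 10 of the 160 pairs, against 43 of 642 (6.7%) over all pairs. It lay below 1 at 5 of the 160, against 27 of 642 (4.21%). Both counts by interval were near the background, so they show nothing particular to downstream pairs. Ratios of single pairs lay on both sides of a median close to 1, and their intervals cover counting error only.

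The lowest ratio was at EPHA2, an ephrin receptor tyrosine kinase gene, with 56 reads in CHIR and 17 in CHIR+SB (0.445, 0.242 to 0.777). BMP7, a ligand of the BMP pathway, followed with 65 and 22 reads (0.496, 0.291 to 0.815) at a site 243 kb past its end (chromosome 20, 55500047 to 55500714). LINC01004 had 56 and 20 reads (0.523), a second ADD3 site 39 and 14 (0.526) and CNOT10, a subunit of a deadenylase complex, 74 and 32 (0.633). The 5 pairs with an interval below 1 were narrower in CHIR+SB.

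The highest ratio was at FMO2, a flavin monooxygenase gene, with 27 reads in CHIR and 40 in CHIR+SB (2.17, 1.30 to 3.68). PRDM14, a regulator of pluripotency, had 28 and 38 reads (1.99, 1.19 to 3.36) at a site 74.2 kb past its end. REEP3 (1.98), the somatostatin gene SST (1.97), SOX6 (1.94), TCP10L2 (1.90), FOXB1 (1.82), CECR3 (1.58) and LINC01124 (1.39) also had an interval above 1. In all 15 pairs the width ratio was on the same side of 1 as the signal ratio, and in 10 of them the ratio per kb was on the other side. Peak width therefore moved with each of these differences, and its part in them was not tested.

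**Figure D4:**
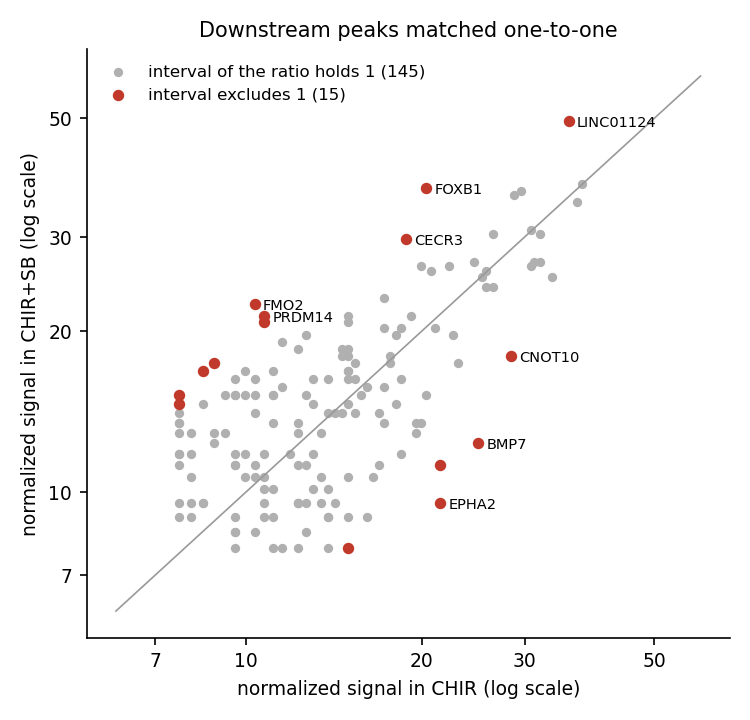
Normalized signal in CHIR (x axis, log scale) and CHIR+SB (y axis, log scale) of the 160 downstream peaks matched one-to-one; the line marks equal signal. Red points, 15 in all, have a ratio whose exact 95% interval excludes 1, with FMO2, PRDM14 and FOXB1 above the line and EPHA2, BMP7 and CNOT10 below it.

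Genes of the pathways tested and of the early embryo were counted in 10 lists of 269 genes. A downstream peak was assigned to 1 of them in RPMI, 20 under CHIR and 33 under CHIR+SB, out of 1, 75 and 93 with a peak at any position. Of the list genes with any peak, that was 26.7% in CHIR (17.1 to 38.1) and 35.5% in CHIR+SB (25.8 to 46.1), near the 25.2% and 28.9% of all genes with any peak, so the counts show nothing particular to these genes. By list, a downstream peak was assigned to 6 of the 15 Wnt pathway genes and targets with any peak in CHIR and 6 of 16 in CHIR+SB, 1 of 13 and 5 of 15 primitive streak genes, 4 of 8 and 4 of 7 HOX genes, 3 of 11 and 8 of 16 neurectoderm genes, and 1 of 6 and 3 of 9 pluripotency genes. BMP genes had 2 of 5 and 2 of 5, FGF genes 2 of 9 and 3 of 13, Nodal and SMAD genes 1 of 4 and 1 of 5, and Hippo genes 0 of 4 and 1 of 7. The 20 housekeeping genes had no peak at any position. In both inhibitor lists, 18 of the genes had a downstream peak. The 15 found in CHIR+SB alone had weak peaks, 14 to 28 reads with a median of 15, and at a minimum signal of 9.61 the CHIR+SB count was 18 in place of 33.

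WNT8A was the only list member with a downstream peak in RPMI. FZD1 and WNT10A, Wnt genes that are not on the list and not in its counts, had RPMI downstream peaks too. In the inhibitor lists WNT8A had a further peak 0.987 kb past its end, with 32 reads in CHIR and 20 in CHIR+SB (ratio 0.916, 0.496 to 1.65). AXIN2, a feedback inhibitor of the pathway, had a peak 33.3 kb past its end with 40 reads in CHIR and 29 in CHIR+SB (1.06, 0.635 to 1.76) and, in CHIR+SB, another 12.4 kb past it with 32 reads over 15 IgG reads. It also had promoter peaks in both lists. The ligand gene WNT3A had 1 peak of 60 reads in CHIR, 10.2 kb past its end, over which CHIR+SB had 2 separate peaks of 17 and 18 reads. DACT1, which encodes a Dishevelled-binding antagonist, had 51 and 24 reads at a site 121 kb past its end (0.689, 0.406 to 1.14). For DKK1, a secreted inhibitor that binds Wnt co-receptors, the CHIR peak at 60.8 kb (23 reads) and the CHIR+SB peak at 35.7 kb (17 reads) were different sites. MYC had a peak in CHIR alone (31 reads), and SP8 in CHIR+SB alone (28 reads).

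HOX genes are transcription factors of the body axis that lie in clusters. HOXD1 had 2 peaks within 2 kb of its end in each inhibitor list and none in RPMI, and HOXD13 a peak of 39 reads in CHIR and 38 in CHIR+SB (1.43, 0.889 to 2.29). HOXB1 had one in CHIR alone (21 reads) and HOXA10 one in CHIR+SB alone (16 reads).

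The neurectoderm genes ranged from a peak among the 10 highest of CHIR, at GBX2, to peaks of 14 reads. GBX2, a homeobox gene of the midbrain-hindbrain boundary, had 81 reads in CHIR and 48 in CHIR+SB, 6.09 kb past its end, over 11 and 23 IgG reads (0.868, 0.594 to 1.26; chromosome 2, 237067916 to 237068513 in CHIR). FOXB1, a forkhead gene of the developing brain that is on none of the 10 lists, had 4 downstream peaks in CHIR and 3 in CHIR+SB. Those at 113 kb had 53 and 66 reads (1.82, 1.25 to 2.67), and those at 114 kb had 80 and 55 (1.01, 0.701 to 1.44). Near its end, 2 CHIR peaks of 20 and 24 reads lay within 1 wide CHIR+SB peak of 44 reads. PAX3, a paired-box gene of neural crest and somites, had peaks of 20 and 30 reads in CHIR and of 19, 21, 14 and 14 reads in CHIR+SB, of which the pair at 147 kb overlapped (0.684, 0.335 to 1.33). EN1, NEUROG2, NKX6-1, IRX1 and IRX2 had a downstream peak in CHIR+SB alone, with 14 to 20 reads.

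Ligands and feedback genes of other pathways were also represented. FGF18 had 83 reads in CHIR and 48 in CHIR+SB at 166 kb (0.847, 0.581 to 1.22), and FGF17 51 and 23 at 1.64 kb (0.661, 0.385 to 1.10). The ERK feedback inhibitor gene SPRY2 had 36 and 16 at 369 kb (0.651, 0.337 to 1.20). ID3, a BMP-induced inhibitor of helix-loop-helix factors, had 33 and 17 at 1.82 kb (0.755, 0.394 to 1.39). Each of these intervals held 1, and that of BMP7 lay below it. Among the genes with a peak in CHIR+SB alone, CDX1, CDX2, MSGN1 and TBX3 of the primitive streak list had 14, 14, 14 and 22 reads.

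**Figure D5:**
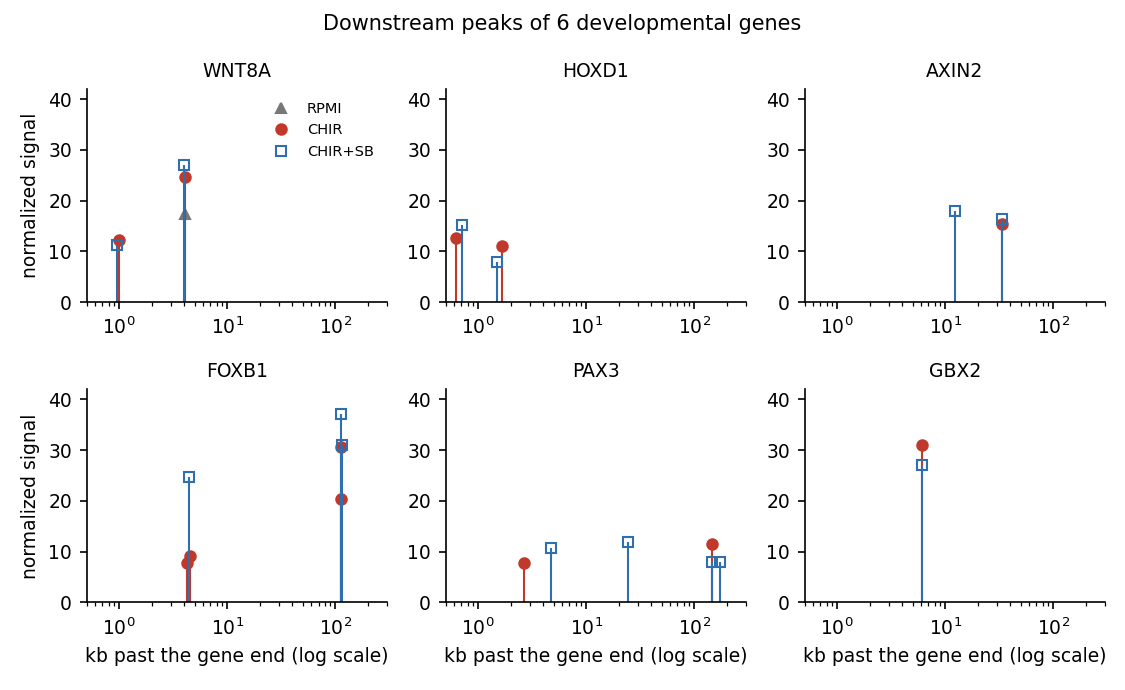
Normalized signal (y axis) of the downstream peaks of WNT8A, HOXD1, AXIN2, FOXB1, PAX3 and GBX2 against distance past the gene end (x axis, kb, log scale); each marker is 1 peak of 1 library. WNT8A alone has an RPMI marker, and the FOXB1 markers fall into a group near 4 kb and a group near 113 kb.

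Most genes had a single downstream peak. The peaks were assigned to 37 genes in RPMI, 234 under CHIR and 436 under CHIR+SB, of which 36, 218 and 383 had 1. At least 3 were assigned to no gene in RPMI, to FOXB1 in CHIR and to 13 genes in CHIR+SB. NUP35, PAX3 and PRKG1-AS1 had 4 each there, and BUD13, CCSER1, CD83, FOXB1, GPAT3, LRFN5, NEBL-AS1, PRR16 and ZNF608 were among those with 3. Apart from FOXB1, the genes named here had low peaks, of at most 33 reads. For a PRKG1-AS1 peak of 14 reads over 8 IgG reads, the interval of signal over IgG held 1 (0.979 to 6.88). The same held for a PRR16 peak of 14 reads over 9 IgG reads (0.896 to 5.82). NUP35, a nuclear pore gene, had 4 of 15 to 19 reads spread from 130 to 613 kb past its end.

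Genes with a downstream peak seldom had a peak of another kind. This was so for 1 of 37 genes in RPMI (2.70%, 0.0684 to 14.2), 17 of 234 in CHIR (7.26%, 4.29 to 11.4) and 65 of 436 in CHIR+SB (14.9%, 11.7 to 18.6). For genes with an upstream peak the share was 10.4% in CHIR (6.88 to 14.8) and 14.1% in CHIR+SB (11.1 to 17.7), and the intervals overlapped. A promoter peak was present at none of the genes with downstream peaks in RPMI, at AXIN2 and SOX6 in CHIR and at 9 genes in CHIR+SB. At SOX6, a SoxD transcription factor gene, the promoter peak had 54 reads in CHIR and 24 in CHIR+SB, while its downstream site, 255 kb past the end, had 28 and 37.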

How the data were processed

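The data are β-catenin ChIP-seq peak lists from SA121 cells, 1 per condition. Per the submitters' processing notes, the tool was Bowtie and the builds were hg19 and mm9; positions are printed as the lists give them (hg19). Peak caller, thresholds and total depth were not given in the sources used here. Per the file headers, the authors deposited for each peak the read counts of the β-catenin and IgG libraries, both as normalized signal (count times 1 factor per library), their ratio, the assigned gene and its distances. IgG enters only through these counts. Relative depth is the inverse of the factors. Gene names matched the RefSeq table (GRCh38.p14, used for names, biotypes and gene order) for 38, 251 and 502 downstream peaks.

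Overlap was 1 shared bp. Ratios were taken at one-to-one overlaps, with exact binomial intervals. Shares have Clopper-Pearson intervals and medians binomial ones. The interval functions and the matching were tested on simulated data. Python 3.11.15, pandas 2.3.3, numpy 2.4.6, scipy 1.17.1 and matplotlib 3.10.9 were used. Named peaks are the 10 highest per list, those of list members, those in all 3 lists, the 5 highest and 5 lowest ratios of CHIR+SB to CHIR, the 3 nearest and 3 farthest per list, and genes with 3 or more peaks. Pairs with an interval excluding 1, and genes named for their position, were added after their values were seen. Members and lists were chosen with earlier results of these data known. Alternatives covered minimum signal, number of peaks, distance rule, overlap, peak width and IgG. Peak sequence in hg19 was not used here. Some named peaks are not reported here.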

Additional observations from a re-analysis of the deposited data

How the results depend on the processing

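Each of 19 results was recomputed under 59 alternatives in all. Of these, 48 kept the value within its interval or, for counts of genes, within 1.5 times. For medians that interval covers the spread between peaks. Shares of downstream peaks moved to 9.02% in RPMI among peaks above the median signal of the list, to 19.6% in CHIR and 19.2% in CHIR+SB with the same number of peaks per list, and to 20.6% and 25.7% with a distance to the TSS above 10 kb. At the common minimum signal, the overlap of CHIR+SB downstream peaks with CHIR was 45.9%, the median distance in CHIR+SB 44.4 kb and its count of list genes 18. With the TSS above 10 kb, the median distance in CHIR was 49.9 kb. With 1 read added to both counts, the median signal over IgG was 3.81 in CHIR and 3.93 in CHIR+SB. Per kb of peak, the median ratio of CHIR over RPMI was 0.911, on the other side of 1 from 1.35. Except where the alternative itself removes peaks, the cause was not tested. No paired analysis was possible because each condition had 1 β-catenin library. With 17 median reads in RPMI and CHIR+SB, single peaks cannot show small differences, and library-to-library variation was not measured.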

Other observations

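From a downstream peak to the nearest other peak of its list, the median distance was 2645 kb in RPMI. It was 699.5 kb in CHIR and 389 kb in CHIR+SB. Another peak lay within 5 kb of 2, 25 and 29 downstream peaks. The lists held 260, 1053 and 1813 peaks, and the part of list length in this order was not tested. Peaks of other positions were not measured, so the spacing is not shown to be particular to downstream peaks. A peak 44.4 kb from the TSS of the pluripotency gene SOX2 was assigned to the overlapping non-coding gene SOX2-OT, and a CHIR+SB peak 13.5 kb from the TSS of BMP4 was assigned to the microRNA gene MIR5580.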
